A study of Mus musculus with 12 samples.

Results

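The Clca genes encode secreted or surface-bound proteins that carry a metalloprotease-like domain. They were named as calcium-activated chloride channels, but they are now known as regulators of such channels, and Clca1 protein raises the surface level of the calcium-activated chloride channel Ano1. Clca1 is also a main component of the mucus that goblet cells release in the gut, whereas Clca2 is known from squamous and basal epithelial cells, Clca3a1 from lymphatic endothelium and Clca4a from enterocytes. The family described here consisted of the 7 Clca genes with a row in the expression table, out of 17734 genes, and all 7 were among the 15315 genes tested. The family was chosen because Clca4b showed a very large and stable difference between colitis mice and normal mice, so that contrast is described here without a test.

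The samples were rectal RNA from 12 male C57BL/6 mice aged 8 to 10 weeks, divided into 4 groups of 3. Neither normal group, without or with BBR, was given dextran sulfate sodium (DSS), a detergent-like polymer that injures the colonic epithelium, while both colitis groups drank 2.5% DSS for 7 days. BBR is berberine, a plant alkaloid, given once a day by gavage at 100 mg/kg, for 6 days by the sample labels and from day 1 to day 7 by the methods of the study. Expression was read as FPKM, a count of fragments scaled for transcript length and for the depth of each library. The comparisons asked how each gene differed with DSS and with BBR. All mice were of 1 strain and sex and were sampled at 1 time, and the colitis is chemical. The labels name the tissue as colorectum or colon, and all 8 simple epithelial markers were expressed in every group, with summed levels of 6163 to 12384 FPKM, with the keratin Krt8 at 2012 to 4820 FPKM. The 11 squamous markers in the table summed to 1.33 to 9.53 FPKM, and the squamous keratin Krt5 lay at or under 0.12 FPKM in every mouse.

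The 4 mice numbered 4 in the labels, 1 in each group, stood apart from the others. Their values summed to 482194 to 504337 FPKM over all genes, against 696286 to 765876 in the other 8 mice, and they had 872 to 1086 genes at 0, against 1332 to 1926. By a rough estimate, 1 read was worth 50.75 to 57.75 FPKM times transcript bases in the mice numbered 4, against 71.25 to 82.0 in the others. What set the mice numbered 4 apart was not stated in the sources used here, so differences are also given within these mice and within the others. All 7 genes were above the level worth about 3 reads in all 12 mice, a limit that ranged from 0.0387 to 0.0834 FPKM and covers counting error only.

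In the GRCm38 assembly with GENCODE M21 annotation, the 7 genes lie on the minus strand of chromosome 3, between 144729677 and 145099443, in the order Clca3a1, Clca3a2, Clca3b, Clca4b, Clca4a, Clca1 and Clca2, with the pseudogene Clca4c-ps between Clca3b and Clca4b. Each has 14 coding exons. Clca4b (144910921 to 144932529) and its neighbour Clca4a (144952480 to 144975045) are near-identical copies, with 96.0% identity over 2778 aligned coding bases. The pair Clca3a1 and Clca3a2 had 97.1% identity over 2709 bases, while Clca3b had 74.3% and 74.5% identity with them, or 86.6% and 86.7% without the gaps, which count as differences and come mostly from its longer coding sequence. All other pairs lay between 52.0% and 60.8%, gaps included. The first 90 coding bases show how alike the copies are. They lie within the first coding exon, at chr3:144932410-144932499 in Clca4b and chr3:144974925-144975014 in Clca4a, and capitals mark the 4 positions at which this pair differs.
Clca4b: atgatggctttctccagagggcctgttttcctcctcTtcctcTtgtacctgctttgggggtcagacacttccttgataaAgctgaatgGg
Clca4a: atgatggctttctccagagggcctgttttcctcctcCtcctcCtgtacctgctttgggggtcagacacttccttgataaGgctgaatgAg
The same stretch of Clca3a1 (chr3:144760633-144760722) has no base that differs from Clca3a2 (chr3:144819380-144819469) or Clca3b (chr3:144849196-144849285), so it is printed once for these 3 genes, in lower case.
Clca3a1, Clca3a2 and Clca3b: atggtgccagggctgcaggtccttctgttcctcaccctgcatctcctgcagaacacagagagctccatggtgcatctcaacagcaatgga

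The reads were single reads of 50 bases, so the same transcripts were searched for 50-base windows that recur in another Clca gene. Every window of Clca1 and Clca2 was its own, as were 94.0% of the windows of Clca3b. In Clca4b 75.2% of 2948 windows were unique, 21.0% recurred in Clca4a and 11.3% in Clca4c-ps, which was not analysed here. In Clca4a 62.9% of 2955 windows were unique, with 20.9% shared with Clca4b and 23.6% with Clca4c-ps. Clca3a1 and Clca3a2 had 75.1% and 74.1% unique windows and shared nearly all of the rest with each other. The authors' expression estimates divide reads between such copies, so the split within each pair is less certain than the level of the pair. The levels of Clca4b, Clca4a, Clca3a1 and Clca3a2 are to be read with that limit. It holds above all for the low level of Clca4b beside the far higher one of Clca4a in mice without DSS. It holds as well for Clca4a in colitis mice 1 and 4, where Clca4b was at 6.71 and 6.35 times its level.

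**Figure D1:**
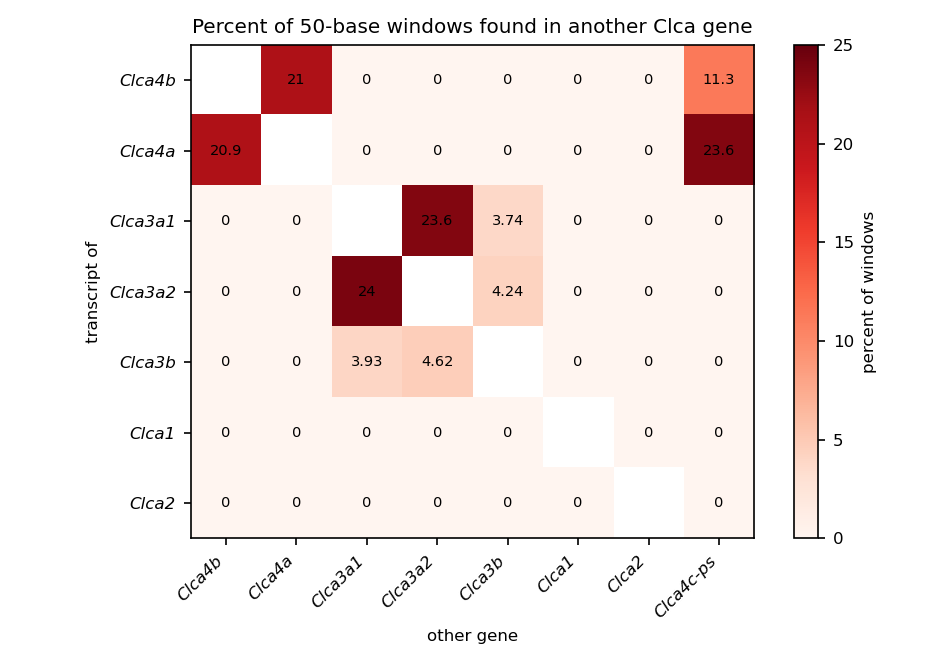
Percent of the 50-base windows of each Clca transcript (rows) that are also found in a transcript of another Clca gene (columns), with the colour scale in percent and each gene against itself left blank. Sharing was found within the Clca4 genes and within the Clca3 genes, up to 24.0%, and was 0 for Clca1 and Clca2.

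RefSeq promoter sequences were matched for 5 of the 7 genes, Clca2, Clca3a1, Clca3a2, Clca3b and Clca4b, but not for Clca1 or Clca4a. The 250 bases before the start of Clca4b are printed because this gene carries the main difference (GRCm38.p6, minus strand, chr3:144932530-144932779). Capitals mark matches to TATAAA on the opposite strand, read as TTTATA, and to the variant TATATA, whose 2 matches overlap and begin 29 and 27 bases before the start.
Clca4b promoter: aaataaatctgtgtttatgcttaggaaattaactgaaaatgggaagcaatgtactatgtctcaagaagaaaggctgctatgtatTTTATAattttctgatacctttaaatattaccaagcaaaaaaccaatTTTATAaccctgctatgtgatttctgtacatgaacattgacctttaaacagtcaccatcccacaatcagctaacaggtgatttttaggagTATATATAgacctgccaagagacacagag
On either strand, TATATA was found in 5.25% and TATAAA in 12.4% of all 32851 promoters of this length. Clca3a1 also held 2 TATATA matches, which overlap and begin 99 and 97 bases before its start. The NF-kB pattern (GGG and CC with any 5 bases between them), the STAT pattern TTCNNNGAA and the AP-1 pattern TGANTCA were not found in these letters of Clca4b, while 45.8%, 7.02% and 6.75% of all promoters held them. The NF-kB pattern was found once in Clca3a1 and once in Clca3a2, and TGANTCA once in Clca3a2 and once in Clca3b. The last match stands in a stretch of 61 bases that Clca3a2 (61 to 1 bases before its RefSeq start) and Clca3b (69 to 9 bases before its RefSeq start) share but for 1 base, in capitals. The GENCODE start of Clca3b lies 55 bases further upstream than the RefSeq start, so most of its stretch is inside the GENCODE transcript, and that of Clca2 lies 337 bases further upstream, while both annotations place the starts of Clca4b, Clca3a1 and Clca3a2 at the same base.
Clca3a2 promoter: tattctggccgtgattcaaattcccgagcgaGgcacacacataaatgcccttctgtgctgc
Clca3b promoter: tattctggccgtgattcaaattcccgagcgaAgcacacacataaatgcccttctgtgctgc

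Clca4b was scarce without DSS and among the most abundant transcripts in colitis mice. Its level was 3.44, 5.72 and 5.46 FPKM in normal mice and 6.35, 1.43 and 1.67 FPKM in normal mice receiving BBR. It was 3067, 3291 and 1636 FPKM in colitis mice and 378, 3367 and 100.3 FPKM in colitis mice receiving BBR. Every mouse given DSS was above every mouse without it, and the lowest and highest of the mice given DSS were both in the BBR group. Among all genes of a mouse ranked by FPKM, Clca4b held place 24 in each of the 3 colitis mice, places 23 to 765 in colitis mice receiving BBR and places 7392 to 11382 in the 6 mice without DSS. In order of group means, colitis mice (2665 ± 898 FPKM, SD, n = 3) stood above colitis mice receiving BBR (1282 ± 1812), and their ranges overlapped. Then came normal mice (4.87 ± 1.25) and normal mice receiving BBR (3.15 ± 2.77), whose ranges also overlapped. In bulk tissue, a change in the number of cells of a type and a change of RNA per cell cannot be told apart.

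The contrast that chose Clca4b, colitis mice against normal mice, gave a log2 fold change of 9.03 with a standard error of 0.98, on the scale of log2(FPKM + 0.1). By size it held place 3 of 15315 genes. The difference was 8.20 between the mice numbered 4 and 9.45 between the others. Clca3a2 (3.28 ± 0.76), Clca3a1 (2.81 ± 0.81), Clca3b (2.49 ± 0.75) and Clca4a (1.94 ± 1.02) were also higher in this contrast, while Clca1 (-0.83 ± 0.82) and Clca2 (-0.81 ± 0.42) were lower, beside a median of -0.32 over all genes (log2 fold change ± SE). For 4 of the 7 genes, Clca4b, Clca3a1, Clca3a2 and Clca3b, every colitis mouse was above every normal mouse, which was true of 7.1% of all tested genes. Because the family was selected on this contrast, these values are a description and nothing is read from the count.

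**Figure D2:**
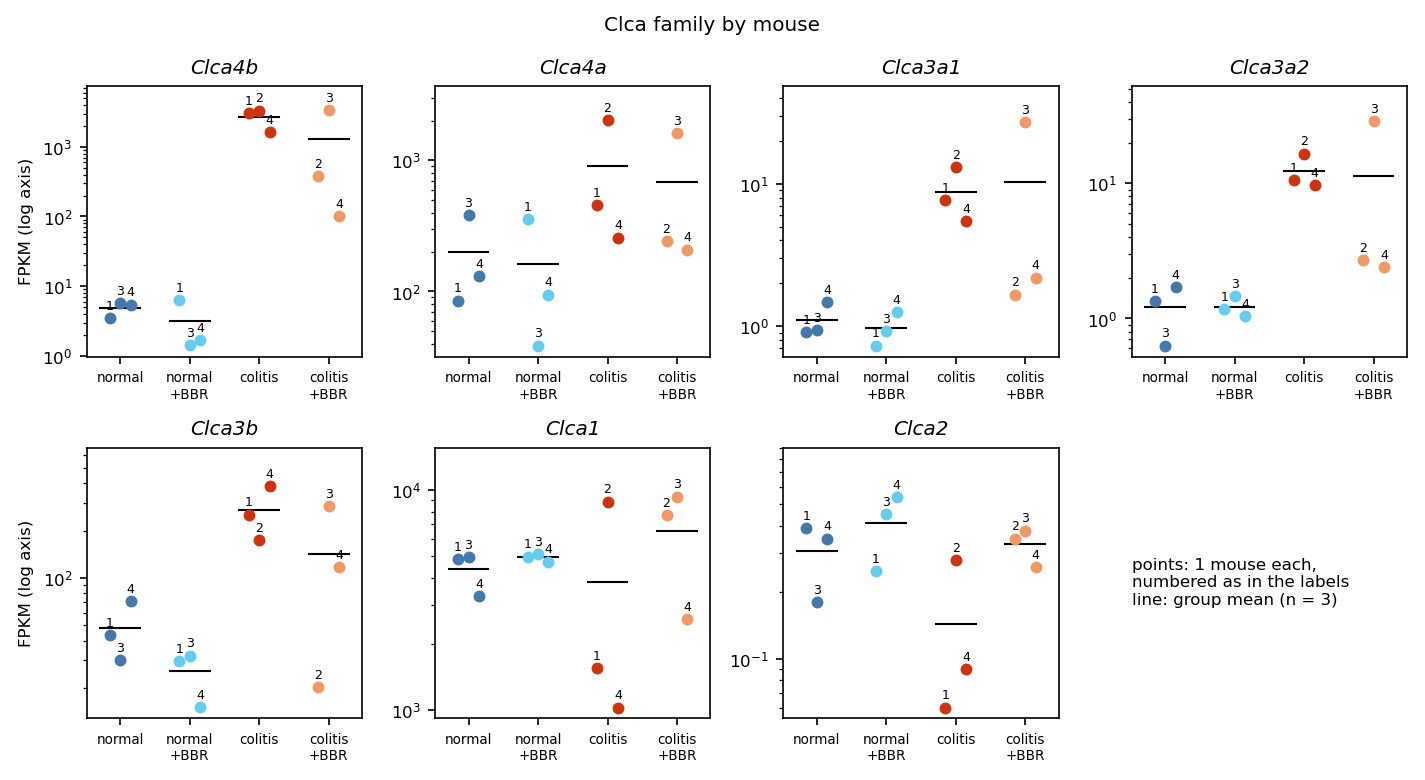
Level of each Clca gene in each mouse, in FPKM on a log axis that differs between panels, with 1 point for each mouse, the mouse number from the labels beside it and a line at the group mean (n = 3). Clca4b lay at 1.43 to 6.35 FPKM in the 6 mice without DSS and at 100.3 to 3367 FPKM in the 6 mice given DSS, with mouse 3 of the colitis group receiving BBR at the top.

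The effect of DSS was also compared in colitis mice receiving BBR against normal mice receiving BBR, mice whose levels had not served to choose Clca4b. The spread came from all 12 mice, including the 6 on which the gene was chosen as stable, so the test is not independent of that choice, and in these 2 groups alone the log2 fold change was 7.60 with an adjusted p of 0.364 by limma (unadjusted p = 0.000164). With the spread of all 12 mice, Clca4b rose with a log2 fold change of 7.60 (SE 0.98, 95% confidence interval 5.45 to 9.75), 194-fold, with an adjusted p of 0.0371 by limma with Benjamini-Hochberg adjustment over all genes. By size of the fold change it held place 1 of 15315 genes, and it was higher in 3 of 3 mice. It was the only member of the family among the 6 genes called in this comparison, which were 0.0392% of those tested, against 3010 genes at an unadjusted p under 0.05. The other 5 were Socs3, a feedback inhibitor of cytokine signalling, Cd38, an ectoenzyme that uses NAD, and Slpi, a secreted protease inhibitor, which rose, and Igfbp3 and Il15, which fell. The Clca4b difference was 5.83 between the 2 mice numbered 4 and 8.49 between the others, and the adjusted p was 0.013 with a term for the mice numbered 4 and 0.0238 without them, in fits that called 268 and 2302 genes. The call was lost on leaving out normal mouse receiving BBR 1, 3 or 4 (adjusted p of 0.0849, 0.178 and 0.228 by limma) or colitis mouse receiving BBR 2 (0.0931), with median centring (0.0509) and with a replicate block (0.057), while the log2 fold change stayed between 6.23 and 8.76 in all 17 alternatives.

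The copy next to it, Clca4a, was far more abundant than Clca4b without DSS and varied widely within each group. It was measured at 85.1, 381 and 131 FPKM in normal mice and at 357, 38.7 and 94.4 FPKM in normal mice receiving BBR. Its level was 457, 2023 and 257 FPKM in colitis mice and 241, 1621 and 208 FPKM in colitis mice receiving BBR. The ranges of all 4 groups overlapped, since a normal mouse and a normal mouse receiving BBR lay above the lower mice given DSS. The log2 fold change with DSS among mice receiving BBR was 1.99 (SE 1.02, 95% confidence interval -0.25 to 4.22), which did not pass the limit by limma (adjusted p = 0.281). It lay between 1.03 and 2.84 on leaving out 1 mouse.

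The ratio of Clca4b to Clca4a within a mouse was 0.015 to 0.0416 in the 6 mice without DSS. Colitis mice had ratios of 6.71, 1.63 and 6.35, and those receiving BBR had ratios of 1.57, 2.08 and 0.482. The lowest ratio with DSS was thus above the highest without it, which is a description, since Clca4b was chosen for its values in colitis and normal mice. As both sequences share windows, reads could have been moved between them in the authors' estimates, and the part of that in the ratio was not tested.

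Clca3a1 and Clca3a2 were scarce without DSS and varied together. Clca3a2 was at 1.34, 0.63 and 1.70 FPKM in normal mice, at 1.17, 1.46 and 1.04 in normal mice receiving BBR, at 10.5, 16.6 and 9.75 in colitis mice and at 2.71, 28.9 and 2.41 in colitis mice receiving BBR. Clca3a1 was at 0.91, 0.94 and 1.48 FPKM, at 0.73, 0.92 and 1.25, at 7.64, 13.1 and 5.48 and at 1.66, 27.0 and 2.19 in the same order of groups. For both genes every mouse given DSS was above every mouse without it, and mouse 3 of the colitis group receiving BBR was again the highest. The ratio of Clca3a2 to Clca3a1 lay between 0.67 and 1.78 in all 12 mice.

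Among mice receiving BBR, the log2 fold change with DSS was 2.17 (SE 0.76) for Clca3a2 and 2.19 (SE 0.81) for Clca3a1. Neither passed the limit by limma, with adjusted p of 0.215 and 0.221 and unadjusted p of 0.0146 and 0.0198. Without colitis mouse receiving BBR 4, Clca3a2 passed it, with a log2 fold change of 2.78 and an adjusted p of 0.0396 by limma, but that fit called 2255 genes. On leaving out 1 mouse, the log2 fold change lay between 1.02 and 2.78 for Clca3a2 and between 0.94 and 2.91 for Clca3a1. In this comparison 3 of the 7 genes, Clca4b, Clca3a1 and Clca3a2, had every colitis mouse above every normal mouse, beside 2.26% of all tested genes. Clca3a1 is known from lymphatic endothelium, and 9 of 10 markers of blood and lymphatic endothelium were lower in this comparison, with a median of -0.89 beside -0.40 over all genes. The blood endothelial markers Pecam1, Cdh5, Kdr and Tek lay between -1.64 and -0.91 (log2 fold change). Of the lymphatic markers, Prox1 (-0.21), Lyve1 (-0.28), Pdpn (-0.22) and Ccl21a (0.16) lay above the median of all genes and Flt4 (-0.88) and Mmrn1 (-1.09) below it. The 10 markers summed to 161 to 196 FPKM in normal mice receiving BBR and to 148 to 199 FPKM in colitis mice receiving BBR, and none was at 0 in a whole group. Most of that sum was Ccl21a, a chemokine of lymphatic endothelium, at 111 to 152 and 117 to 174 FPKM, and the other 9 markers summed to 43.7 to 49.7 and to 25.1 to 32.8 FPKM.

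Clca3b, the third copy of that set, was more abundant than these without DSS. It was at 43.4, 30.02 and 71.4 FPKM in normal mice and at 29.7, 32.2 and 15.2 FPKM in normal mice receiving BBR. In colitis mice it was at 252, 173 and 381 FPKM, all above the normal mice, and in colitis mice receiving BBR at 20.4, 285 and 117 FPKM. Colitis mouse receiving BBR 2 was therefore within the range of the mice without DSS, and the highest colitis mouse was mouse 4, not mouse 2. The log2 fold change with DSS among mice receiving BBR was 1.85 (SE 0.75) and did not pass the limit by limma (adjusted p = 0.234). It lay between 1 and 2.9 on leaving out 1 mouse.

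Clca1 was by far the most abundant gene of the family in normal tissue, and its values with DSS had no common direction. It was at 4842, 4959 and 3305 FPKM in normal mice and at 4993, 5119 and 4731 FPKM in normal mice receiving BBR, where it held places 3 to 9 among all genes. In colitis mice it was at 1553, 8866 and 1023 FPKM, and in colitis mice receiving BBR at 7695, 9342 and 2594 FPKM. Colitis mice 1 and 4 lay below every mouse without DSS and colitis mouse 2 above them, so the coefficient of variation was 115% in colitis mice and 4.0% in normal mice receiving BBR. The log2 fold change with DSS among mice receiving BBR was 0.21 (SE 0.82, 95% confidence interval -1.58 to 1.99, adjusted p = 0.884 by limma). It was -0.87 between the mice numbered 4 and 0.75 between the others, and it turned to -0.39 after quantile normalization, so no direction is given.

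The goblet cell markers were likewise spread in the mice given DSS. All 12 were measured, none at 0 in a whole group, and they summed to 12326 to 31625 FPKM in normal mice, 12103 to 28048 in normal mice receiving BBR, 10459 to 68639 in colitis mice and 15827 to 78031 in colitis mice receiving BBR. The 4 lowest sums were those of the mice numbered 4. The most abundant marker was Zg16, a lectin-like mucus protein, at 4138, 7661 and 40337 FPKM from lowest to highest in colitis mice, and the highest value was in mouse 2, the colitis mouse with the most Clca1 as well. Of the 12 markers 9 were higher with DSS among mice receiving BBR and none passed the limit, with a median log2 fold change of 0.39 beside -0.40 over all genes. Their part in the Clca1 values was not tested.

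Clca2 was the rarest member. It was at 0.39, 0.18 and 0.35 FPKM in normal mice, at 0.25, 0.45 and 0.54 in normal mice receiving BBR, at 0.06, 0.28 and 0.09 in colitis mice and at 0.35, 0.38 and 0.26 in colitis mice receiving BBR. The ranges of all groups overlapped, with colitis mice 1 and 4 lowest, near the level worth about 3 reads. The log2 fold change with DSS among mice receiving BBR was -0.22 (SE 0.42, adjusted p = 0.753 by limma), and it turned to 0.27 after quantile normalization and to 0.23 after centring each mouse on its median. The squamous markers, which mark cells where Clca2 is known, were scarce as well, with 7 of 13 past the filter on low values. The highest mean over all 12 mice was that of the keratin Krt13, at 0.21 to 1.21 FPKM without DSS and 0.44 to 5.18 FPKM with it, but by group it was the highest in colitis mice alone.

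**Figure D3:**
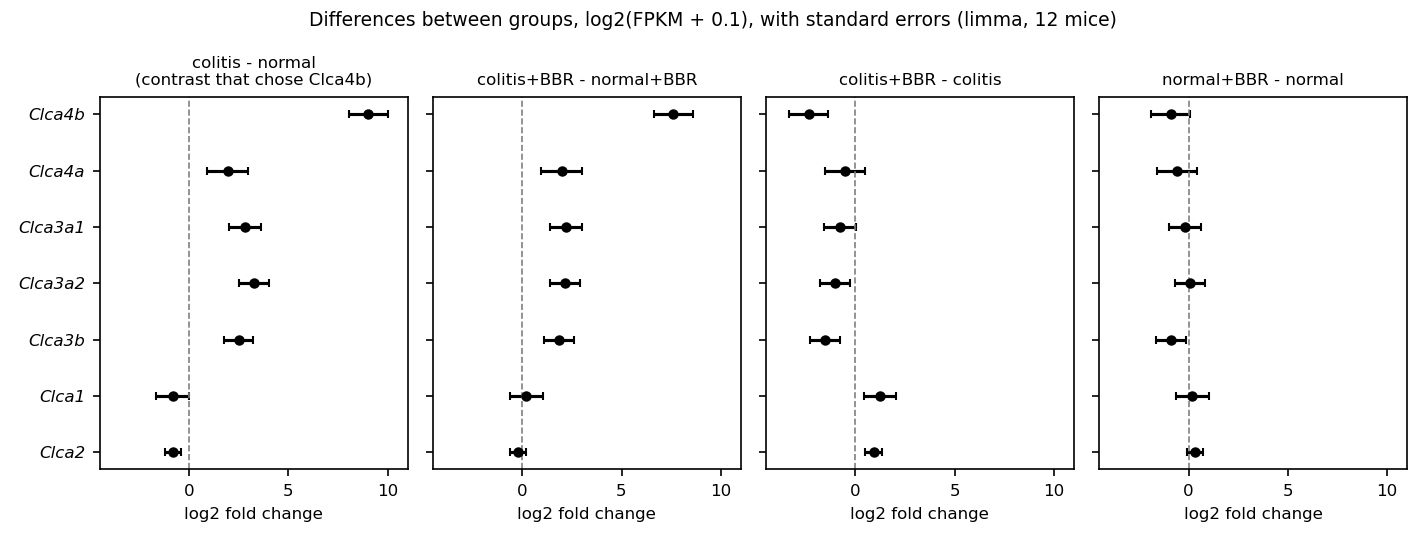
Log2 fold change of each Clca gene in 4 comparisons (panels), on the scale of log2(FPKM + 0.1), with bars for the standard error from limma over 12 mice and a dashed line at 0. Clca4b stood at 9.03 and 7.60 in the comparisons of mice with and without DSS, and no gene passed the limit in the comparisons with and without BBR.

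The make-up of the family as a whole therefore differed between mice. Clca1 made up 92.2% to 98.6% of the summed Clca level in the 6 mice without DSS, with Clca4a next at 0.744% to 7.09% and Clca4b at 0.0275% to 0.155%. In colitis mice Clca1 made up 29.0%, 61.6% and 30.9%, and Clca4b 57.4%, 22.9% and 49.4%. In colitis mice receiving BBR Clca1 made up 92.3%, 63.7% and 85.8%, and Clca4b 4.53%, 23.0% and 3.32%. Clca4b was thus the most abundant member in colitis mice 1 and 4 and in no other mouse. The summed level itself was 3517 to 5378 FPKM in normal mice, 3313 to 14383 in colitis mice and 3024 to 14672 in colitis mice receiving BBR.

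**Figure D4:**
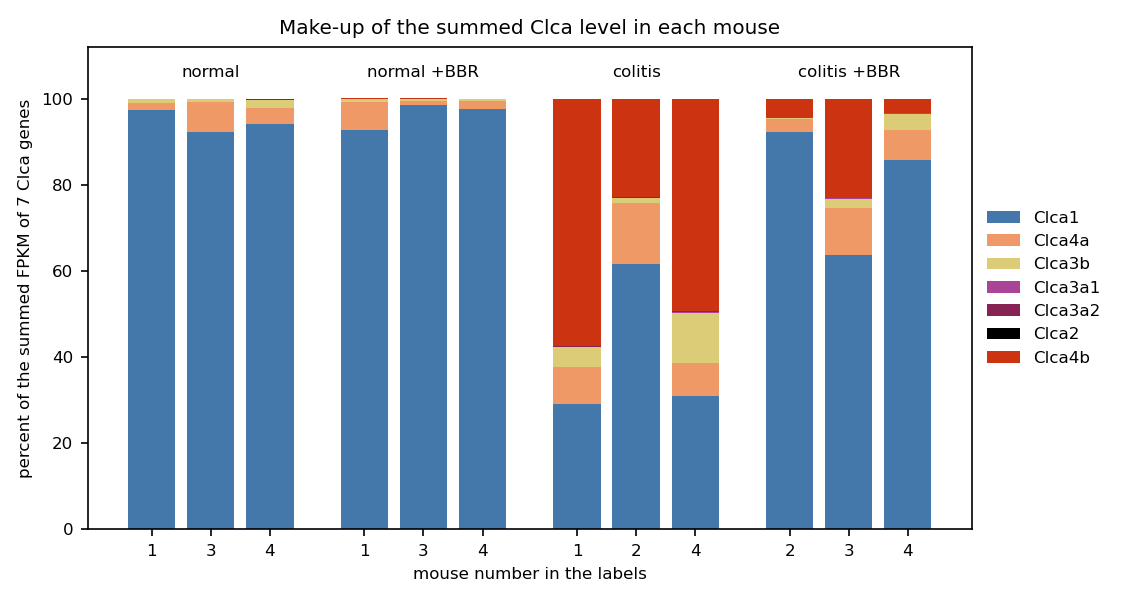
Share of each Clca gene in the summed FPKM of the 7 genes, in percent, with 1 stacked bar for each mouse and bars grouped by treatment. Clca1 filled 92.2% to 98.6% of the bar in mice without DSS, and Clca4b filled 22.9% to 57.4% in colitis mice and 3.32% to 23.0% in colitis mice receiving BBR.

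With BBR in colitis, the comparison of colitis mice receiving BBR against colitis mice, no member of the family passed the limit. The Clca4b difference shares the colitis mice that served to choose the gene, and a high level in those mice lowers it by itself. Its log2 fold change was -2.34 (SE 0.98, 95% confidence interval -4.49 to -0.19), with an unadjusted p of 0.0356 and an adjusted p of 0.718 by limma. Of the colitis mice receiving BBR, mice 2 and 4 lay below every colitis mouse and mouse 3 above all of them. Without mouse 3 the log2 fold change was -3.71 (adjusted p = 0.047 by limma, in a fit that called 58 genes), without colitis mouse receiving BBR 4 it was -1.17, and it was -4.03 between the mice numbered 4 and -1.49 between the others. Clca3b (-1.53 ± 0.75), Clca3a2 (-1.03 ± 0.76), Clca3a1 (-0.79 ± 0.81) and Clca4a (-0.52 ± 1.02) had values below 0, and Clca1 (1.24 ± 0.82) and Clca2 (0.92 ± 0.42) above it (log2 fold change ± SE). The adjusted p of these 6 genes lay between 0.789 and 1, in a comparison in which 0% of the tested genes were called and 978 had an unadjusted p under 0.05.

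In normal mice, BBR gave Clca values that overlapped between the groups for all 7 genes. The log2 fold changes were -0.90 (SE 0.98) for Clca4b, -0.89 (SE 0.75) for Clca3b and -0.57 (SE 1.02) for Clca4a, and those of the other 4 genes lay between -0.18 and 0.33. All 7 had an adjusted p of 1 by limma, 0% of the tested genes were called and 208 had an unadjusted p under 0.05. The difference of both BBR effects was also fitted as an interaction. It was -1.43 for Clca4b (SE 1.39, 95% confidence interval -4.48 to 1.61, adjusted p = 1 by limma), and as it contains the contrast that chose the gene, a high value there lowers it by itself. On leaving out 1 mouse, the interaction of Clca4b lay between -2.8 and -0.27. In the interaction 0% of the genes were called, with 371 at an unadjusted p under 0.05.

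Most genes of a list on chloride channels and secretion, the process that Clca proteins are known to regulate, had lower values with DSS. Of the 19 chloride channel, anion channel and secretion genes listed, 16 passed the filter, and 12 were lower and 4 higher in colitis mice receiving BBR than in normal mice receiving BBR, with a median log2 fold change of -0.92 beside -0.40 over all genes. None passed the limit by limma, and 5 had an unadjusted p under 0.05. The smooth muscle markers were lower as well, 8 of 8 with a median of -1.89. In colitis mice receiving BBR 2, 3 and 4 the secretion list summed to 250, 197 and 409 FPKM and the muscle markers to 503, 483 and 3516 FPKM, both highest in mouse 4. The muscle sum was highest in mouse 4 of every group, whereas the secretion sum was highest there in both colitis groups and in neither normal group, and colitis mouse 1, with the lowest muscle sum of 73.4 FPKM, had 317 FPKM for the secretion list. The part of muscle in the list was not tested. Ano1, the channel that Clca1 regulates, was at 53.8, 61.5 and 76.2 FPKM in normal mice receiving BBR and at 5.70, 9.60 and 57.9 FPKM in colitis mice receiving BBR, from lowest to highest, so the groups overlapped (log2 fold change -2.09, SE 0.71, adjusted p = 0.215 by limma). Kcne3, a potassium channel subunit of secretory crypts, and Clcn2, a chloride channel of the epithelium, had the highest means of the list over all 12 mice, with log2 fold changes of -0.66 (SE 0.55) and 0.12 (SE 0.27). In colitis mice against normal mice, 13 of the 16 were lower, with a median of -0.98 beside -0.32.

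Interleukin 4 and interleukin 13 are known to raise Clca1 in mucous epithelia, through their shared receptor and Stat6. Il13 was listed at 0 in all 6 mice without DSS and at 0.07 FPKM or less in the others, and Il4 was not analysed here. Of the 6 genes of this list that passed the filter, 4 were higher and 2 lower with DSS among mice receiving BBR, none passed the limit, and the median was 0.24 beside -0.40. Il4ra, the receptor chain, was at 17.6, 26.3 and 30.5 FPKM in colitis mice, from lowest to highest, and at 6.19, 6.40 and 26.5 FPKM in colitis mice receiving BBR, against 3.61 to 5.34 FPKM in all mice without DSS. Its log2 fold change among mice receiving BBR was 1.30 (SE 0.46, adjusted p = 0.219 by limma). Il13ra1, the other receptor chain and the most abundant gene of the list, was at 42.5 to 54.4 FPKM without DSS, 54.3 to 61.8 in colitis mice and 45.1 to 79.8 in colitis mice receiving BBR. Stat6 lay between 20.1 and 28.8 FPKM in every mouse.

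Markers of other cells were also high or low in the mice with high Clca4b. The 10 markers of regenerating epithelium summed to 470 to 1082 FPKM in the mice without DSS, to 2182 to 6895 in colitis mice and to 941, 2119 and 7463 FPKM in colitis mice receiving BBR, highest in mouse 3 as for Clca4b, and none was at 0 in a whole group. Their most abundant member was Ly6a, at 1693 to 5312 FPKM in colitis mice and 665 to 6231 in colitis mice receiving BBR. The other 9 markers summed to at most 417 FPKM without DSS and to at most 1583 in colitis mice. With DSS and BBR they summed to 276, 347 and 1231 FPKM, so 2 of these 3 mice lay below the highest mouse without DSS. The 10 granulocyte markers summed to 264 to 794 FPKM without DSS, to 606 to 4196 in colitis mice and to 492 to 2949 in colitis mice receiving BBR, but Ly6g, at 259 to 793 FPKM even without DSS, made up 98.4% to 99.9% of that sum in mice without DSS and 73.9% to 99.2% in mice given DSS. The other 9 granulocyte markers summed to 1.14 to 4.15 FPKM without DSS, 49.0 to 496 in colitis mice and 3.97 to 220 in colitis mice receiving BBR. S100a8 and Ngp were at 0 in all 6 mice without DSS, and S100a8 was at 24.9 to 336 FPKM in colitis mice and at 0.31 to 148 in colitis mice receiving BBR. The 8 smooth muscle markers were lower in most mice given DSS, with 1668 to 4967 FPKM without DSS, 73.4 to 674 in colitis mice and 483 to 3516 in colitis mice receiving BBR. Their most abundant member was Tagln, at 508 to 1371, 27.8 to 286 and 187 to 767 FPKM in the same order. Among mice receiving BBR, 8 of 9 regenerating epithelium markers tested and 10 of 10 granulocyte markers were higher with DSS and 8 of 8 smooth muscle markers lower, none past the limit. The part of these cells in the Clca4b values was not tested.

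The genes whose pattern over the 12 mice was most like that of Clca4b were ranked by Pearson r of log2(FPKM + 0.1), among 11942 genes with a mean of at least 1 FPKM. They were Tnf (0.985), Cd38 (0.984), Mfsd2a (0.982), Ptk6 (0.977), Isx (0.975), Tac1 (0.974), Sprr2h (0.973), Slpi (0.972), Socs3 (0.968) and Trim40 (0.965). The mice share a split by DSS that any gene higher in colitis follows, and 95 genes had an r over 0.9. By Spearman's rho the order changed, from place 7 for Sprr2h and 18 for Ptk6 to 108 for Cd38 and 264 for Tac1, so the ranking is a description. Tnf, the inflammatory cytokine, was at 0.25 to 0.40 FPKM without DSS, 8.94 to 23.4 in colitis mice and 2.15 to 33.8 in those receiving BBR. Isx, a homeobox factor of the intestinal epithelium, was at 1.24 to 3.91 FPKM without DSS, 32.3 to 56.6 in colitis mice and 13.6 to 42.3 in colitis mice receiving BBR.

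The other members had other partners. For Clca1 the genes most alike were Sh2d7 (0.979), Gnat3 (0.960), Rgs13 (0.955), Trpm5 (0.954) and Sh2d6 (0.942), of which Gnat3 and Trpm5 are signalling genes of taste and tuft cells. All 5 were scarce, and Trpm5 was at 0.30, 0.45 and 2.37 FPKM in colitis mice from lowest to highest, against 1.21 to 2.05 FPKM in the mice without DSS. For Clca4a they were Krt20 (0.955), a keratin of surface colonocytes, Sprr1a (0.953), Syk (0.947), Slc4a11 (0.942) and Stk25 (0.941). Sprr1a, a cornified envelope precursor, was at 4.44 to 167 FPKM without DSS and at 17.9 to 436 FPKM with it. For Clca3b they were led by Sidt1 (0.968) and Apobec3 (0.956), and for Clca3a2 by Trim10 (0.987) and Rel (0.980), with Clca3a1 in place 4 (0.974). Within the family, Clca4b had an r of 0.92 with Clca3a2, 0.89 with Clca3a1, 0.80 with Clca3b, 0.77 with Clca4a, -0.14 with Clca1 and -0.54 with Clca2 over the 12 mice, and by Spearman's rho the value for Clca1 was 0.17 and that for Clca2 -0.53.

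**Figure D5:**
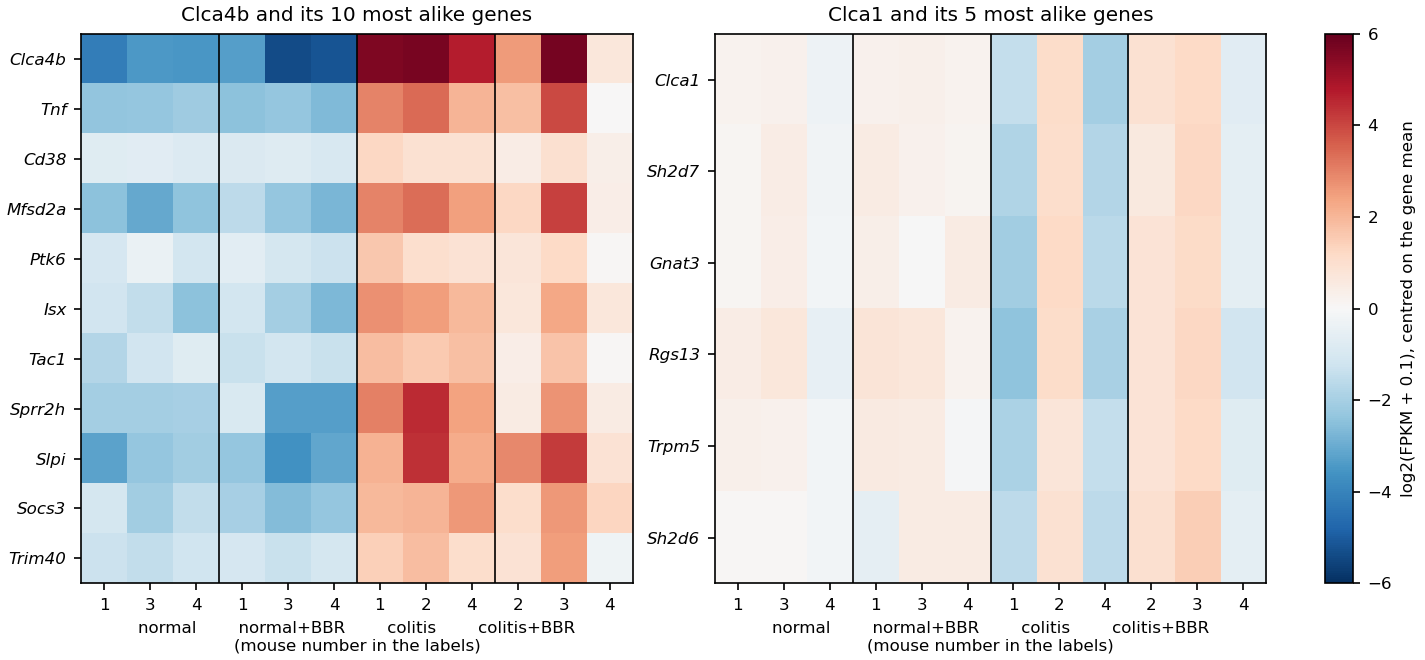
Level of Clca4b and its 10 most alike genes (left) and of Clca1 and its 5 most alike genes (right) in each mouse, as log2(FPKM + 0.1) centred on the mean of each gene over the 12 mice, with 1 column for each mouse and lines between the groups. The left panel splits by DSS, with Clca4b from 1.43 to 3367 FPKM, whereas on the right colitis mice 1 and 4 were low and colitis mouse 2 was high.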

How the data were processed

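Rectal RNA of 12 mice was analysed, grouped by the sample labels. The authors depleted ribosomal RNA and sequenced single reads of 50 bases on a BGISEQ-500 by the methods, while the labels name an Illumina TruSeq kit. Per the submitters' processing notes, the authors used Bowtie2 2.2.5, RSEM 1.2.12 and the mm9 build, and they deposited a table of expression values taken here to be FPKM. This unit was inferred from the values, which do not tell it from TPM. No read counts were used, so depth is given only as an estimate of what 1 read or 3 reads are worth. That estimate is rough in the mice numbered 1 to 3.

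Genes with a mean of at least 0.1 entered a limma fit (version 3.58.1, R 4.3.3) of log2(FPKM + 0.1), which had 1 mean for each group and a trended empirical Bayes spread. P-values were adjusted by Benjamini-Hochberg over 15315 genes, with a limit of 0.05. They measure the spread between mice of these groups. Scripts were tested on simulated data. Transcripts and coordinates came from GENCODE M21 (GRCm38) and promoters from RefSeq (GRCm38.p6), not from the build of the files. Coding sequences were aligned with Biopython 1.88.

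Named genes were all 7 Clca genes, the most abundant genes of 10 lists, and the genes with the highest Pearson r, 10 for Clca4b and 5 for each other member with a mean of at least 1 FPKM. Genes outside that rule (Ano1, Krt5, S100a8, Ngp, Il13, Il4ra, Stat6, Dhrs9, Slc37a2, Car1, the endothelial markers other than Ccl21a, Igfbp3 and Il15) were named after their values were seen. The family and the lists were chosen with earlier results of these data known. Alternatives covered the pseudocount, the filter, quantile normalization and median centring, the spread, blocks, and leaving out mice. The comparison of the mice numbered 4 with the others was added after the data were seen.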

Additional observations from a re-analysis of the deposited data

How the results depend on the processing

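Of the values compared under the alternatives, 371 kept their direction and their side of the limit or moved little. Another 7 lost the limit, 2 gained it, 9 turned direction and 22 moved. A value not past the limit in the main fit could not lose it. All 7 losses were thus of Clca4b among mice receiving BBR, the only member past the limit, out of 17 alternatives for that value. The log2 fold change of Clca4b among mice receiving BBR was 8.05 with median centring (adjusted p = 0.0509 by limma) and 7.60 in the 2 groups alone (0.364), and lay between 6.23 and 8.76 on leaving out 1 mouse. The count of genes called in that comparison, 6, was 3 with median centring, 12 with no trend, 268 with a block for the mice numbered 4, 2302 in the mice numbered 1 to 3, 0 in the 2 groups alone and 0 to 2255 on leaving out 1 mouse, most without colitis mouse receiving BBR 4. In colitis mice receiving BBR against colitis mice, the count of 0 was 4 with a pseudocount of 1, 2 with 0.01, 1 with no filter, 3 with no trend, 2 with a block for the mice numbered 4 and 0 to 58 on leaving out 1 mouse, most without colitis mouse receiving BBR 3. In normal mice receiving BBR against normal mice the count of 0 was 1 in the 2 groups alone. The cause of these shifts was not tested.

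Among mice receiving BBR, Clca1 was -0.39 with quantile normalization and between -0.15 and 0.78 on leaving out 1 mouse, and Clca2 was 0.27 with quantile normalization, 0.23 with median centring and 0.08 in the mice numbered 1 to 3. Clca4a in colitis mice receiving BBR against colitis mice lay between -1.47 and 0.34 on leaving out 1 mouse. In the DSS comparison of mice receiving BBR, scaling moved the median of all genes from -0.40 to -0.03 (quantile) or 0.06 (centring).

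The replicate numbers do not mark shared animals. Mice with the same number had a mean correlation of their deviations of 0.34, from 0.08 to 0.75. The mean was 0.5 among the mice numbered 4 and 0.21 in the same-number pairs of mice numbered 1 to 3. With different numbers it was -0.10, from -0.53 to 0.46. With the numbers as a replicate block, Clca4b among mice receiving BBR was 7.78 (adjusted p = 0.057 by limma), Clca1 was -0.34, Clca3b in colitis against normal mice was 3.26, and the count in colitis mice receiving BBR against colitis mice was 1.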

Other observations

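The summed surface colonocyte markers overlapped between the mice with and without DSS. Of the 10 markers, 7 were higher with DSS among mice receiving BBR, with a median log2 fold change of 0.18 beside -0.40 over all genes, and none passed the limit by limma. They summed to 7256 to 14551 FPKM in mice without DSS, 4213 to 15976 in colitis mice and 7898 to 25115 in colitis mice receiving BBR. Car4, a carbonic anhydrase of the surface epithelium, had the highest mean of them over all 12 mice, but Car1 was above it in normal mice receiving BBR. In colitis mice against normal mice 5 of the 10 were higher and 5 lower. Single markers stood apart in opposite directions, and the next 2 were picked after their values were seen. Dhrs9, a retinol dehydrogenase, was at 1.13 to 4.98 FPKM without DSS, 37.5 to 133 in colitis mice and 6.67 to 106 in colitis mice receiving BBR, with a log2 fold change of 3.15 (SE 0.92, adjusted p = 0.215 by limma) among mice receiving BBR. Slc37a2, a sugar phosphate transporter, was at 167 to 278 FPKM in the mice without DSS, 6.61 to 27.8 in colitis mice and 9.58 to 237 in colitis mice receiving BBR, with a log2 fold change of -1.67 (SE 0.91, adjusted p = 0.3 by limma).

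The coefficient of variation of Clca4a was 80.0% in normal mice, against 25.6% for Clca4b, and 106% in colitis mice, against 33.7%, and these are the mice on which Clca4b was chosen as stable. It was 104% against 88.1% in normal mice receiving BBR and 117% against 141% in colitis mice receiving BBR, where Clca4b varied more. The highest Clca4a values without DSS, 381 and 357 FPKM, came from normal mouse 3 and normal mouse receiving BBR 1, in which Clca4b stood at 5.72 and 6.35 FPKM, the highest of its group in each case.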
